A study of Mus musculus with 8 samples.

Results

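The genes of the aminoacyl-tRNA synthetases, the enzymes that join each amino acid to its transfer RNA, were followed in quadriceps femoris (QF) muscle. They were taken by symbol from the table of 14012 genes as 20 genes of the cytosolic enzymes and 16 genes of the mitochondrial enzymes, whose symbols end in 2. This gave 36 genes, and all 36 were in the table and entered the test. Poly(A) RNA was sequenced from QF of 4 mice labelled knockout and 4 mice labelled control, with 1 library per animal. The mice labelled knockout, Grpel1 smk -/- (spelled Grpel1skm-/- in the paper), carried floxed Grpel1 and a Cre-ERT2 recombinase driven by the human skeletal muscle alpha-actin promoter. That promoter limits the recombinase to skeletal muscle fibres, so that other cells of the muscle keep the gene, and tamoxifen, given at 5 weeks of age for 5 consecutive days, switches the recombinase on. The mice labelled control were Grpel1 flox/flox, and the 2 groups thus share the floxed allele. The knockout mice reached their end point within 5 weeks of the first injection, and the age of each animal at sampling is not given in the sources used here. Whether the control mice of these libraries received tamoxifen is not stated, and an effect of tamoxifen and an effect of the deletion cannot be told apart in these data.

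Protein synthesis runs in separate compartments of a muscle fibre, and each compartment charges its own transfer RNAs. The cytosolic enzymes serve the ribosomes that make nearly all muscle protein, and several of them sit together in a multisynthetase complex held by scaffold proteins. The mitochondrial enzymes are made from nuclear genes, are imported into the matrix and serve the ribosomes that make the few proteins coded by mitochondrial DNA. Import into the matrix is driven by the mitochondrial HSP70 motor, and GRPEL1 is the nucleotide exchange factor of that motor. Glycine and lysine are exceptions among the amino acids, since Gars and Kars each code for the enzyme of both compartments. Glutamine is another, because mitochondria make its charged transfer RNA through an amidotransferase.

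The libraries held 16017565 to 18813042 counts per control and 16424608 to 20361144 counts per knockout library. Levels are given as CPM, the count of a gene scaled to a common library size, with sizes corrected by TMM, a factor for composition that ranged over 0.747 to 0.844 for control and 1.19 to 1.33 for knockout libraries. Grpel1 itself had 69.6, 71.2, 68.8 and 64.1 CPM in control replicates 1 to 4 and 69.1, 71.9, 60.3 and 59.9 CPM in knockout replicates 1 to 4, and the groups overlapped (log2 fold change -0.066, adjusted p = 0.49 in edgeR). The count over the whole gene thus did not separate the groups, whereas those of other genes did, Acta1 and Trib3 among them, and every direction below rests on the labels. Myofibre genes marked the tissue, with Acta1 at 44672 ± 4013 CPM and Ckm, the muscle creatine kinase, at 21080 ± 2515 CPM in the controls (SD, n = 4).

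The cytosolic synthetase genes were higher in the libraries labelled knockout, while the mitochondrial ones moved in both directions. Of the 20 cytosolic genes 15 rose, 0 fell and 5 did not pass an adjusted p of 0.01 by the quasi-likelihood test of edgeR, adjusted over all 14012 genes after Benjamini and Hochberg. Of the 16 mitochondrial genes 4 rose, 4 fell and 8 did not pass. Over all genes tested, 23.6% rose and 21.1% fell at the same threshold, shares that those of the mitochondrial genes were close to. Log2 fold changes had a median of 0.78 over the cytosolic genes, 0.0035 over the mitochondrial genes and 0.065 over all genes. In 17 of the 20 cytosolic genes the lowest knockout library exceeded the highest control library, against 29% of all genes, and no cytosolic gene had every knockout library below. Of the mitochondrial genes 4 lay wholly above and 4 wholly below, and 24.4% of all genes lay wholly below. As a share of all counts, the cytosolic genes together took 0.149% to 0.154% in the control libraries and 0.456% to 0.496% in the knockout libraries. The mitochondrial genes took 0.046% to 0.054% and 0.056% to 0.091%. These shares are not corrected for composition. On the TMM scale the cytosolic genes summed to 1805 to 2019 CPM per control and 3433 to 4169 CPM per knockout library. The mitochondrial genes summed to 616 to 665 CPM and 430 to 740 CPM.

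**Figure D1:**
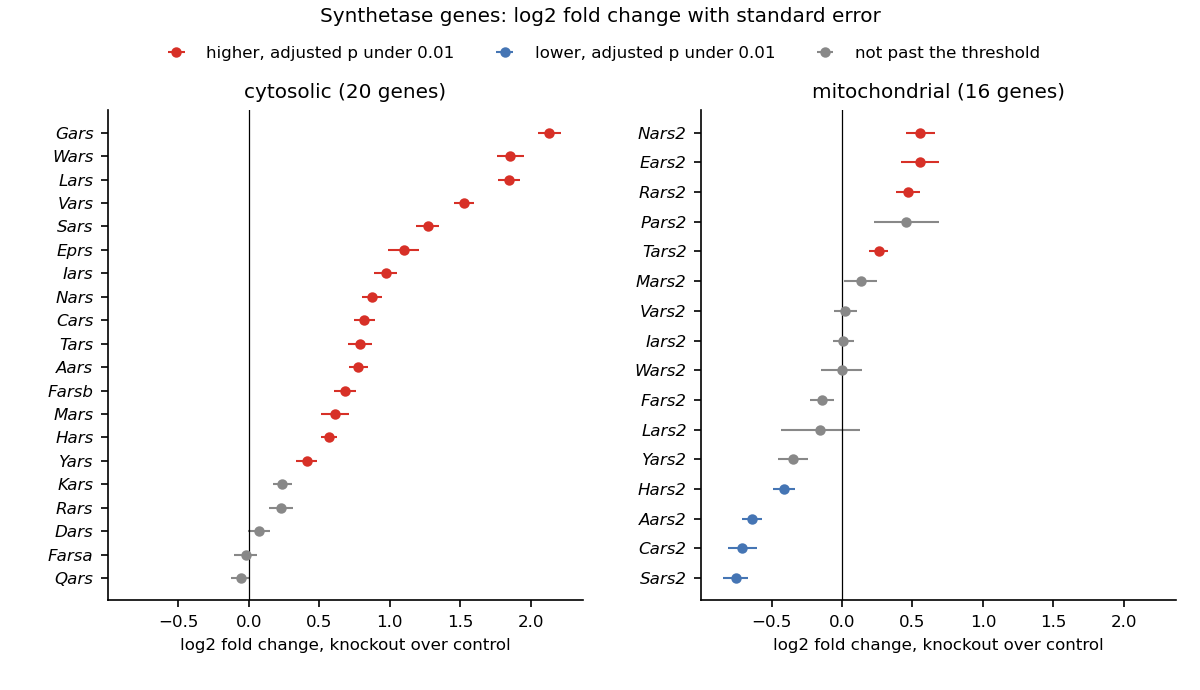
The log2 fold change of each synthetase gene, knockout over control, on the horizontal axis with its standard error, for the 20 cytosolic genes (left) and the 16 mitochondrial genes (right). Red points rose and blue points fell at an adjusted p of 0.01, and grey points did not pass. The cytosolic genes run from -0.058 (Qars) to 2.13 (Gars) and the mitochondrial ones from -0.75 (Sars2) to 0.56 (Nars2).

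These counts depend on the scaling of the libraries. With library totals alone, without the composition factor, the log2 fold changes of all genes had a median of 0.73, and 20 cytosolic and 10 mitochondrial genes rose while 0 mitochondrial genes fell. Relative to the median of all genes, the cytosolic median was 0.72 higher under each of the 4 scalings tried while the mitochondrial median differed from it by -0.061 to -0.065. A change of scaling shifts all genes by nearly the same amount, so these differences could hardly move and are no further support. The falls given below for Aars2, Cars2, Hars2 and Sars2 are therefore falls on the TMM, RLE and upper-quartile scales and relative to other genes. Their log2 fold changes on library totals alone were 0.030, -0.041, 0.26 and -0.081, none past the threshold.

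Marker genes of the cell types in muscle also differed between the groups on the TMM scale. Of 8 myofibre genes 6 fell and 1, the myosin gene Myh1, rose, and they summed to 189765 to 244012 CPM per control library and 61881 to 89175 CPM per knockout library. Of 5 genes of satellite cells and regenerating fibres 3 rose (Myog, Myh8 and Myh3), and the list summed to 31.7 to 37.7 CPM per control library and 758 to 1605 CPM per knockout library. Of 5 fibroblast genes 4 fell, of 5 endothelial genes 4 fell, of 6 macrophage genes 1 rose (Cd68) and of 2 neutrophil genes 1 rose (S100a8). Of 6 adipocyte genes 1 fell (Plin4), while the other 5 had log2 fold changes above 0 that did not pass. The median of the 6 adipocyte genes was 0.58. None of 4 Schwann cell genes and none of 4 proliferation genes passed, the latter with 4 at an unadjusted p under 0.05 in edgeR, and the 1 lymphocyte gene of 5 that was in the table, Cd3e, fell. These genes moved with the same labels as the synthetase genes, and their part in the synthetase results was not tested. In bulk muscle, a change in the number of cells of a type and a change in RNA per cell cannot be told apart.

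The promoters of the synthetase genes were searched for short motifs in the RefSeq sequences of GRCm38.p6, each from 250 bases before to 50 bases after a start of the gene in RefSeq. That start can differ from the one in the deposited table, as it does for Yars. Entries matched 13 of the 20 cytosolic and 14 of the 16 mitochondrial genes, and none was present for Cars, Hars, Lars, Nars, Rars, Vars, Wars, Hars2 and Pars2. The C/EBP-ATF composite element, TGATGNAA with N any base on either strand, is the kind of site bound by ATF4, the transcription factor of the amino acid response. It occurred in 5 of the 13 cytosolic promoters (38.5%), in 0 of the 14 mitochondrial promoters and in 306 of the 11057 genes of the table with an entry (2.77%). The 5 cytosolic genes were Aars, Gars, Iars, Tars and Yars, and all 5 were among those that rose. Of the 13 cytosolic genes searched, Dars, Farsa, Kars and Qars did not pass and the others rose. Of all 20 cytosolic genes, searched or not, 15 rose. The share that rose among all genes with the element was not determined. A match of each is shown as a 30-base stretch of the gene's own strand, 5′ to 3′, with the match in capitals, because this element was found in cytosolic and in none of the mitochondrial promoters searched. The position is that of the first base of the match, counted from the RefSeq start of the entry.
Aars, position 10, chr8:111033840-111033869, plus strand: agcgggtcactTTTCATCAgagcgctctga
Gars, position -30, chr6:55037960-55037989, plus strand: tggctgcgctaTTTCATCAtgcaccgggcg
Iars, position 8, chr13:49682126-49682155, plus strand: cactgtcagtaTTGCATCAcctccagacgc
Tars, position -15, chr15:11399655-11399684, minus strand: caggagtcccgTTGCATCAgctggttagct
Yars, position 4, chr4:129189895-129189924, plus strand: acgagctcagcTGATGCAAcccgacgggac

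All matches shown but that of Yars were the reverse complement of the letters given. Within the 250 bases before the start alone, 3 cytosolic promoters kept a composite element, against 2.42% of all genes. They were those of Gars and Tars, with the matches shown, and of Aars, with another match that is not reported here. Rises were not limited to these genes, since Eprs, Farsb, Mars and Sars rose without a match in this window. A match of letters is a description of the sequence only, and no binding was measured.

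The core of the motif of NRF1, a transcription factor of many genes of mitochondrial proteins, showed the other distribution. GCATGCGC, or its reverse complement, was in 3 of the 14 mitochondrial promoters (21.4%), in 0 of the 13 cytosolic promoters and in 5.62% of all genes with an entry. It is shown in the same way for Rars2, which rose, and for Vars2 and Wars2, which did not pass the threshold.
Rars2, position -51, chr4:34614895-34614924, plus strand: cggccccgtgtGCATGCGCactccacactt
Vars2, position -46, chr17:35667620-35667649, minus strand: gagtcttttacGCATGCGCctgcgtgtccc
Vars2, position -20, chr17:35667594-35667623, minus strand: tccccgcccacGCATGCGCgcgcacctcgc
Wars2, position -64, chr3:99141015-99141044, plus strand: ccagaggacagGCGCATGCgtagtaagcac

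The letters CCGGAAGT of an ETS site were in 2 cytosolic promoters (Farsa and Mars), in 1 mitochondrial promoter (Rars2) and in 8.46% of all genes with an entry. The cAMP response element TGACGTCA was in none of the promoters of either set and in 3.43% of all genes.

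Gars, the glycine enzyme of both compartments, had the largest change of the 36 genes. It lies at chr6:55038001-55079504, plus strand, of GRCm38, the build of the deposited table. It had 95.4, 85.6, 92.4 and 89.1 CPM in control replicates 1 to 4 and 382, 358, 427 and 425 CPM in knockout replicates 1 to 4, a 4.39-fold difference of means (log2 fold change 2.13, standard error 0.082, adjusted p = 8.4e-08). The lowest knockout library stood at 358 CPM and the highest control library at 95.4 CPM. Wars, the tryptophan enzyme, followed (chr12:108860030-108894174, minus strand). It had 49.1, 52.4, 54.8 and 48.4 CPM in control replicates 1 to 4 and 176, 159.8, 205 and 201 CPM in knockout replicates 1 to 4 (3.62-fold, log2 fold change 1.86, standard error 0.093, adjusted p = 3.2e-07), and the groups were far apart. Wars is also known as an interferon-induced gene. Of 6 interferon response genes (Irf1, Gbp2, Cxcl9, Ifit1, Isg15 and Psmb8) 0 passed the threshold, where 23.6% of all genes rose and 21.1% fell. None had an unadjusted p under 0.05 in edgeR (0). Their levels summed to 25.5 to 38.2 CPM per control library and 24.9 to 43.5 CPM per knockout library. Cxcl9, Ifit1 and Isg15 were low, with control means of 2.06, 2.68 and 1.54 CPM. Whether interferon had a part in the rise of Wars was not tested.

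The enzymes of the branched-chain amino acids differed in size of change. Lars, the leucine enzyme, had 55.3, 55.97, 58.3 and 54.9 CPM in control replicates 1 to 4 and 199.98, 178, 216 and 213 CPM in knockout replicates 1 to 4 (3.60-fold, log2 fold change 1.85, standard error 0.077, adjusted p = 1.2e-07). Vars, the valine enzyme (chr17:35000907-35016329, plus strand), had 61.3, 59.3, 56.5 and 57.7 CPM in control replicates 1 to 4 and 171, 152, 184 and 169.96 CPM in knockout replicates 1 to 4 (2.88-fold, log2 fold change 1.53, standard error 0.073, adjusted p = 2.7e-07). Iars, the isoleucine enzyme, rose less, from 123 ± 8.91 to 240.4 ± 17.8 CPM (log2 fold change 0.97, standard error 0.080, adjusted p = 5.3e-06). In all of these genes the groups did not overlap, and the control libraries of Lars and Vars lay within a few CPM of each other.

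Sars, the serine enzyme, which also loads serine onto the selenocysteine transfer RNA (chr3:108424864-108445259, minus strand), had 131, 123, 127 and 126 CPM in control replicates 1 to 4 and 302, 272, 344 and 303 CPM in knockout replicates 1 to 4 (2.41-fold, log2 fold change 1.27, standard error 0.081, adjusted p = 1.1e-06). Eprs, a fusion of the glutamate and proline enzymes and the largest synthetase of the complex, was the most abundant cytosolic gene of the controls (chr1:185363095-185428355, plus strand). It had 339.6, 367, 376 and 343 CPM in control replicates 1 to 4 and 766, 624, 901 and 766 CPM in knockout replicates 1 to 4 (2.14-fold, log2 fold change 1.10, standard error 0.11, adjusted p = 1.8e-05). Among its knockout libraries replicate 2 was lowest and replicate 3 highest, and all lay above the controls.

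The other rises of the cytosolic set were smaller, with log2 fold changes from 0.41 to 0.87 after Iars. They covered the enzymes of asparagine (Nars), cysteine (Cars), threonine (Tars), alanine (Aars), methionine (Mars), histidine (Hars) and tyrosine (Yars) and the beta subunit of the phenylalanine enzyme (Farsb). Nars rose from 160.2 ± 7.39 to 294 ± 17.3 CPM and Aars from 149 ± 8.66 to 255 ± 10.9 CPM. Yars, the smallest of these rises, had 74.5, 70.1, 74.7 and 63.8 CPM in control replicates 1 to 4 and 90.7, 89.6, 100.5 and 95.4 CPM in knockout replicates 1 to 4 (log2 fold change 0.41, standard error 0.073, adjusted p = 8.1e-04), and the groups were separate. Mars rose from 83.4 ± 5.81 to 127 ± 16.8 CPM. Its span overlaps that of Ddit3 on the opposite strand by 68 bases, and Ddit3 rose more steeply (log2 fold change 2.62). Yars overlaps C77080 on the opposite strand by 30 bases. Whether the counting used strand is not stated, and reads in such an overlap cannot be assigned without it.

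The genes that did not pass were Qars, Farsa, Dars, Rars and Kars. Qars, the glutamine enzyme, had 81.7, 78.4, 80.1 and 69.2 CPM in control replicates 1 to 4 and 73.7, 72.03, 78.5 and 72.9 CPM in knockout replicates 1 to 4 (log2 fold change -0.058, standard error 0.070, adjusted p = 0.50). Dars, the aspartate enzyme, had 98.3, 91.5, 98.3 and 82.9 CPM in control replicates 1 to 4 and 95.7, 92.4, 106 and 96.5 CPM in knockout replicates 1 to 4 (log2 fold change 0.076, standard error 0.077, adjusted p = 0.42). In both genes the groups overlapped. Rars, the arginine enzyme, had 69.1, 61.3, 67.5 and 53.7 CPM in control replicates 1 to 4 and 69.97, 72.6, 79.3 and 72.8 CPM in knockout replicates 1 to 4 (log2 fold change 0.23, standard error 0.087, adjusted p = 0.044). Kars, the lysine enzyme of both compartments, had 124, 114, 122 and 109 CPM in control replicates 1 to 4 and 133, 145, 144 and 131 CPM in knockout replicates 1 to 4 (log2 fold change 0.24, standard error 0.070, adjusted p = 0.014). In Rars the lowest knockout library (69.97 CPM) barely exceeded the highest control (69.1 CPM), and in Kars the margin was wider (131 against 124 CPM). For both genes the exact permutation test over the 70 assignments of the libraries gave p = 0.0286, the smallest it can give. Kars passed with upper-quartile scaling and with a mean count of at least 50 required.

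Qars, Dars, Rars and Kars are all enzymes of the multisynthetase complex. Of the 8 complex enzymes 4 rose (Eprs, Iars, Lars and Mars) and 4 did not pass, with a median log2 fold change of 0.43. Of the 12 cytosolic enzyme genes outside the complex 11 rose, with a median of 0.81, and only Farsa did not pass. The difference between these groups of genes was not tested. By the structural class of the catalytic domain the set divided less, with 7 of 9 genes of class I and 7 of 10 of class II rising, Eprs counted in neither because it holds a domain of each.

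The phenylalanine enzyme is built of an alpha subunit coded by Farsa and a beta subunit coded by Farsb. Farsa had 30.1, 27.8, 31.3 and 26.02 CPM in control replicates 1 to 4 and 28.8, 30.7, 28.5 and 25.4 CPM in knockout replicates 1 to 4 (log2 fold change -0.022, standard error 0.084, adjusted p = 0.84), with overlapping groups. Farsb had 59.2, 59.6, 66.3 and 51.9 CPM in control replicates 1 to 4 and 96.7, 90.1, 97.2 and 96.5 CPM in knockout replicates 1 to 4 (log2 fold change 0.68, standard error 0.079, adjusted p = 4.8e-05), and the groups were separate. The log2 ratio of Farsb to Farsa within each library, a comparison chosen after the values were seen, averaged 1.04 ± 0.062 over the controls and 1.75 ± 0.15 over the knockouts (SD, n = 4), with no overlap. The subunits of this enzyme thus changed unequally at the RNA level.

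**Figure D2:**
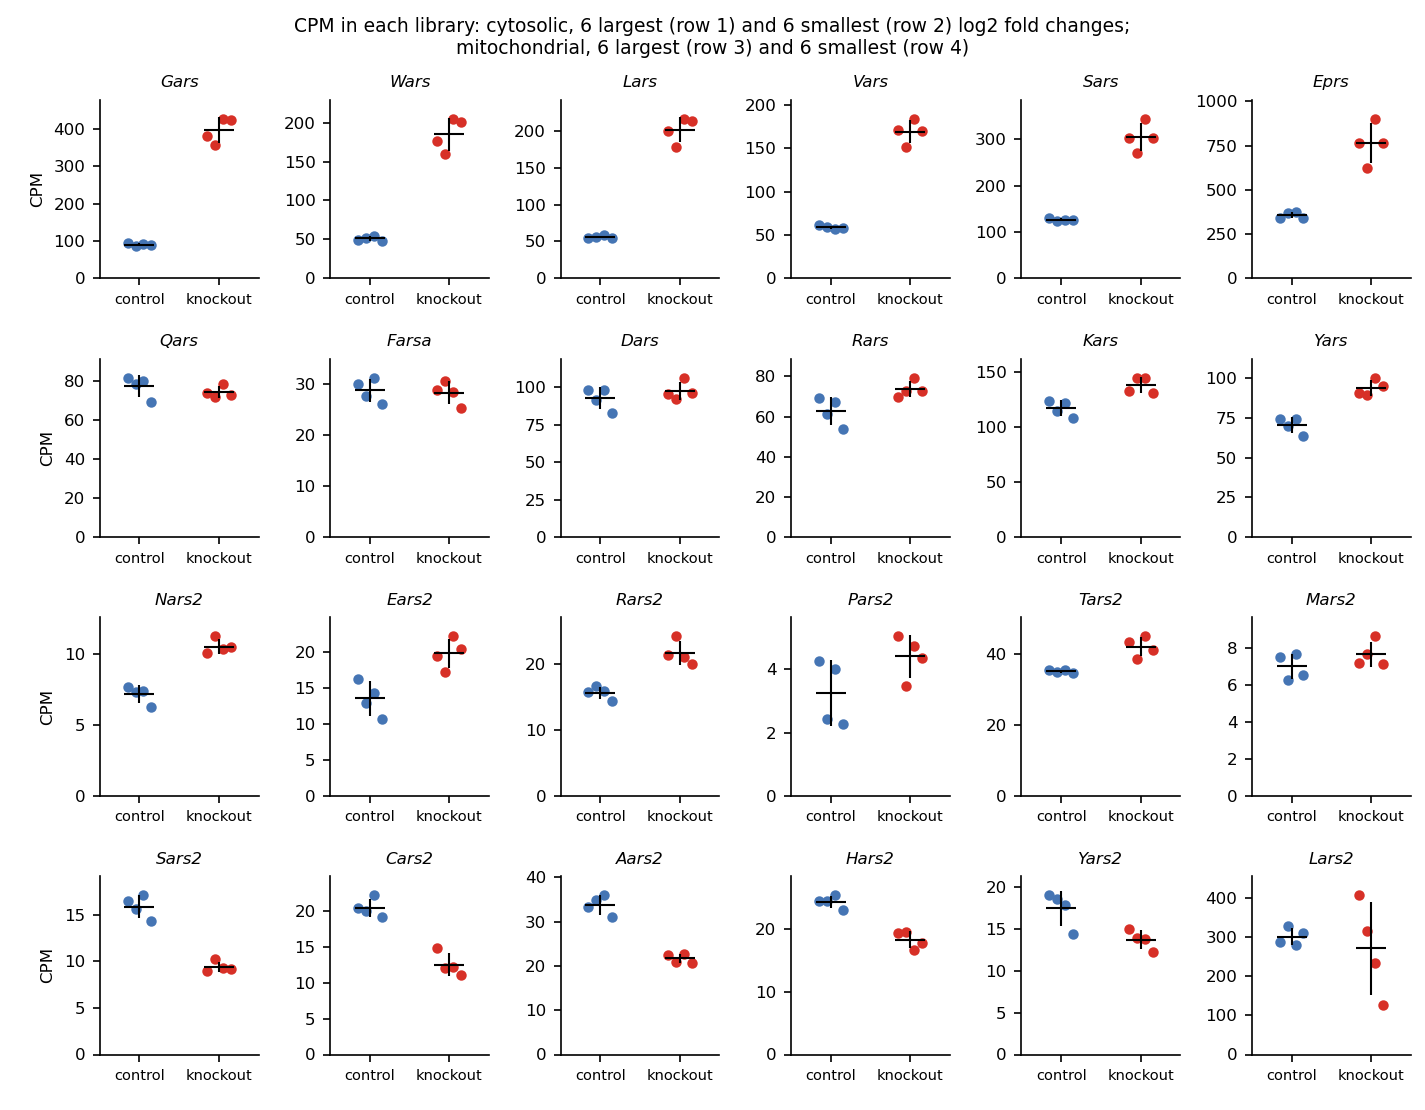
CPM in each of the 4 control (blue) and 4 knockout (red) libraries for the 6 largest and 6 smallest log2 fold changes of each set, with the mean and SD in black. The control and knockout points are apart in the first row (Gars to Eprs), and those of Qars, Farsa and Dars in the second row overlap. Lars2 in the last row has the widest spread among the knockouts.

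Among the mitochondrial genes, Nars2, the asparagine enzyme, had the largest rise. It had 7.67, 7.33, 7.37 and 6.24 CPM in control replicates 1 to 4 and 10.05, 11.2, 10.3 and 10.5 CPM in knockout replicates 1 to 4 (1.47-fold, log2 fold change 0.56, standard error 0.10, adjusted p = 9.2e-04), with no overlap. Ears2, the glutamate enzyme, had 16.3, 12.96, 14.4 and 10.6 CPM in control replicates 1 to 4 and 19.5, 17.3, 22.2 and 20.4 CPM in knockout replicates 1 to 4 (log2 fold change 0.55, standard error 0.13, adjusted p = 0.005). The groups came within 1 CPM of each other, and Ears2 no longer passed when control replicate 2 or knockout replicate 1, 3 or 4 was left out. Rars2, the arginine enzyme, had 15.8, 16.6, 15.8 and 14.3 CPM in control replicates 1 to 4 and 21.3, 24.1, 21.1 and 19.99 CPM in knockout replicates 1 to 4 (1.39-fold, log2 fold change 0.47, standard error 0.086, adjusted p = 9.9e-04), with no overlap. Tars2, the threonine enzyme, had 35.5, 34.8, 35.5 and 34.6 CPM in control replicates 1 to 4 and 43.3, 38.6, 44.9 and 41.1 CPM in knockout replicates 1 to 4 (1.20-fold, log2 fold change 0.26, standard error 0.064, adjusted p = 0.006). The controls of Tars2 lay within 1 CPM of each other, but the change was small and did not pass the threshold in 11 of 18 alternatives, RLE scaling and DESeq2 among them.

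Pars2, the proline enzyme and the least abundant gene of the set, had 4.28, 2.42, 4.01 and 2.27 CPM in control replicates 1 to 4 and 5.05, 3.48, 4.75 and 4.37 CPM in knockout replicates 1 to 4 (log2 fold change 0.46, standard error 0.23, adjusted p = 0.11). Mars2, the methionine enzyme, had 7.51, 6.28, 7.66 and 6.55 CPM in control replicates 1 to 4 and 7.17, 7.69, 8.63 and 7.15 CPM in knockout replicates 1 to 4 (log2 fold change 0.13, standard error 0.12, adjusted p = 0.35). The groups overlapped in both genes.

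Of the genes that fell, Sars2, the serine enzyme, fell most. It had 16.5, 15.6, 17.1 and 14.4 CPM in control replicates 1 to 4 and 8.92, 10.2, 9.29 and 9.22 CPM in knockout replicates 1 to 4 (0.593-fold, log2 fold change -0.75, standard error 0.091, adjusted p = 6.1e-05). Cars2, the cysteine enzyme, had 20.4, 20.1, 22.3 and 19.2 CPM in control replicates 1 to 4 and 14.8, 12.04, 12.2 and 11.1 CPM in knockout replicates 1 to 4 (0.612-fold, log2 fold change -0.71, standard error 0.10, adjusted p = 2.2e-04). Aars2, the alanine enzyme, had 33.3, 34.9, 35.998 and 31.002 CPM in control replicates 1 to 4 and 22.5, 20.9, 22.7 and 20.7 CPM in knockout replicates 1 to 4 (0.642-fold, log2 fold change -0.64, standard error 0.072, adjusted p = 4.0e-05). In these genes no knockout library reached the lowest control library. Hars2, the histidine enzyme, had 24.5, 24.4, 25.3 and 22.999 CPM in control replicates 1 to 4 and 19.3, 19.4, 16.6 and 17.8 CPM in knockout replicates 1 to 4 (0.751-fold, log2 fold change -0.41, standard error 0.078, adjusted p = 0.0012), again with no overlap. Yars2, the tyrosine enzyme, had 19.1, 18.6, 17.9 and 14.4 CPM in control replicates 1 to 4 and 14.97, 13.9, 13.9 and 12.2 CPM in knockout replicates 1 to 4 (log2 fold change -0.35, standard error 0.11, adjusted p = 0.019), and knockout replicate 1 lay above control replicate 4. Yars2 passed with DESeq2, with the replicate number as a block and without control replicate 4.

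Lars2, the leucine enzyme, was the most abundant mitochondrial member and the most variable. It had 288, 328, 280.3 and 312 CPM in control replicates 1 to 4 and 408, 317, 234 and 127 CPM in knockout replicates 1 to 4 (log2 fold change -0.15, standard error 0.28, adjusted p = 0.66). The knockout libraries ranged on both sides of the controls, with an SD of 119.7 CPM against 22.1 CPM in the controls. Fars2, Wars2, Iars2 and Vars2 had log2 fold changes from -0.14 to 0.025, none past the threshold. Iars2 overlaps Rab3gap2 on the opposite strand by 85 bases.

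Levels per exon length were used to compare genes with each other. In the controls Eprs stood highest among the cytosolic genes at 73.5 ± 3.70 CPM per kb of exon, followed by Nars at 60.4 ± 2.79 and Kars at 51.4 ± 3.10 (SD, n = 4), each separate from the next. Vars was lowest at 13.9 ± 0.490, and its range overlapped that of Lars above it. In the knockouts Gars led at 166 ± 14.2 CPM per kb, overlapping Eprs at 158 ± 23.3, and Farsa was lowest at 15.5 ± 1.21, separate from the next gene up, Hars. In the controls, from Aars down to Vars, the ranges of neighbours in rank overlapped at every step but that from Sars to Qars.

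In the mitochondrial set Lars2 stood at 77.8 ± 5.69 CPM per kb in the controls, above every other mitochondrial gene and in the range of Eprs, and Iars2 followed at 24.1 ± 1.47. The remaining mitochondrial genes of the controls lay between 1.05 ± 0.338 (Pars2) and 12.8 ± 0.809 (Fars2). Summed per length, the cytosolic genes exceeded the mitochondrial genes 3.20 ± 0.20 times among control and 6.96 ± 1.65 times among knockout libraries (SD, n = 4), with ranges of 3.02 to 3.45 and 5.42 to 8.94. Gars and Kars, which code for enzymes of both compartments, are counted as cytosolic in this ratio. Gars alone went from 37.9 to 166 CPM per kb. The spread in the knockouts moved with Lars2, which gave much of the mitochondrial sum. Without Lars2, a choice made after the values were seen, the ratio was 5.36 ± 0.17 and 11.2 ± 0.88, and the summed mitochondrial level was 109.9 to 118 CPM per kb per control library and 101 to 110.5 CPM per kb per knockout library.

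**Figure D3:**
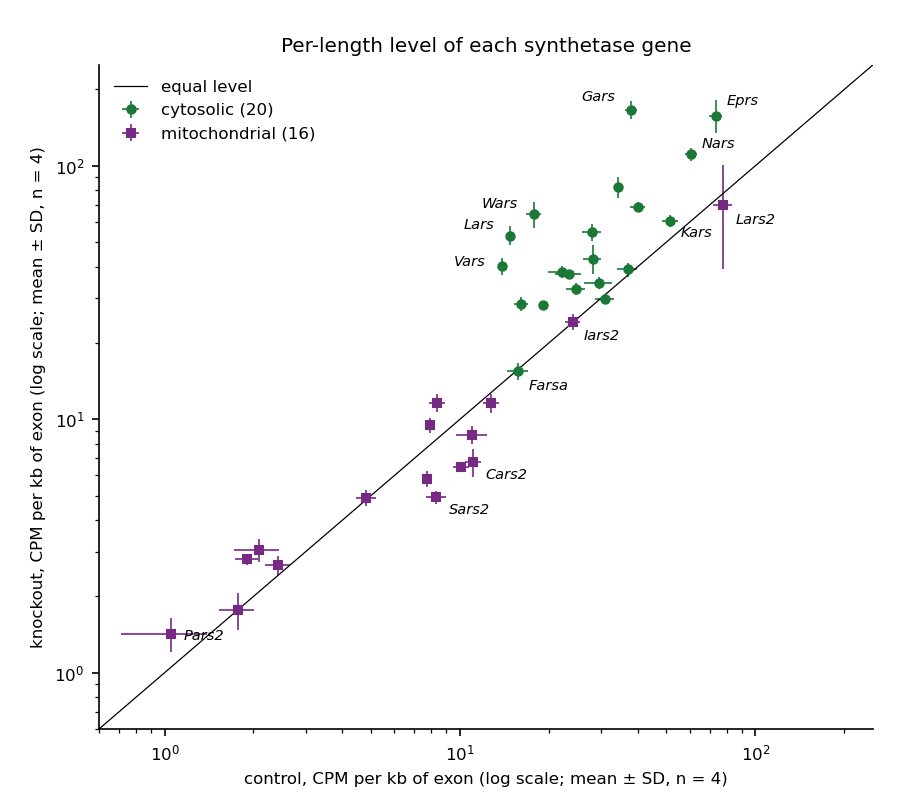
Mean level of each gene in CPM per kb of exon, control on the horizontal and knockout on the vertical axis, both on log scales, with SDs over 4 libraries. Green circles (cytosolic) lie near or above the line of equal level, and they lie above all purple squares (mitochondrial) but those of Lars2 and Iars2 in level. Gars moved from 37.9 to 166 CPM per kb.

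A ratio of the cytosolic to the mitochondrial gene for the same amino acid, taken within a library, does not depend on the scaling of the libraries. It was formed for 17 pairs over 16 amino acids, with Farsa and Farsb each set against Fars2 and Eprs against Ears2 and Pars2. In 14 of the 17 pairs the lowest log2 ratio of the knockouts exceeded the highest of the controls (two-sided exact permutation test, p = 0.0286 for each pair, the smallest it can give), in 0 the knockouts lay wholly below, and in 3 the groups overlapped. The differences of the mean log2 ratio ran from -0.23 to 2.12 with a median of 0.83. The pairs share genes and libraries, and no test was made over them together. The ratios carry the changes of the single genes, of which 17 of the 20 cytosolic ones lay wholly above, against 29% of all genes. The share over other pairs of genes was not determined, so the count of pairs is no separate support.

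The largest difference was that of Lars over Lars2, whose log2 ratio was -2.38, -2.55, -2.26 and -2.50 in control replicates 1 to 4 and -1.03, -0.83, -0.11 and 0.75 in knockout replicates 1 to 4. The knockout libraries differed widely, as Lars2 did. Sars over Sars2 went from 2.99 ± 0.097 to 5.003 ± 0.20 (SD, n = 4), since the cytosolic gene rose and the mitochondrial gene fell. The same held for Cars over Cars2, from 1.34 ± 0.080 to 2.87 ± 0.16, for Aars over Aars2, from 2.14 ± 0.051 to 3.55 ± 0.034, and for Hars over Hars2, from 0.64 ± 0.043 to 1.62 ± 0.097. Wars over Wars2 went from 2.71 ± 0.20 to 4.57 ± 0.18 and Vars over Vars2 from 1.46 ± 0.13 to 2.96 ± 0.16, with the mitochondrial gene of each not past the threshold.

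Hars and Hars2 are neighbours, coded on opposite strands with 3 bases between their annotated starts, and they moved apart. Hars rose from 38.003 ± 1.14 to 56.3 ± 1.44 CPM (log2 fold change 0.57, standard error 0.057, adjusted p = 1.8e-05) and Hars2 fell from 24.3 ± 0.967 to 18.3 ± 1.36 CPM.

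The pairs that overlapped were those of asparagine, phenylalanine with Farsa, and arginine. Nars over Nars2 differed by 0.33 (exact permutation p = 0.0571), as both genes rose. Farsa over Fars2 differed by 0.12 (exact permutation p = 0.486). Rars over Rars2 differed by -0.23 (exact permutation p = 0.0857), the lowest value, with Rars2 rising and Rars not past the threshold.

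**Figure D4:**
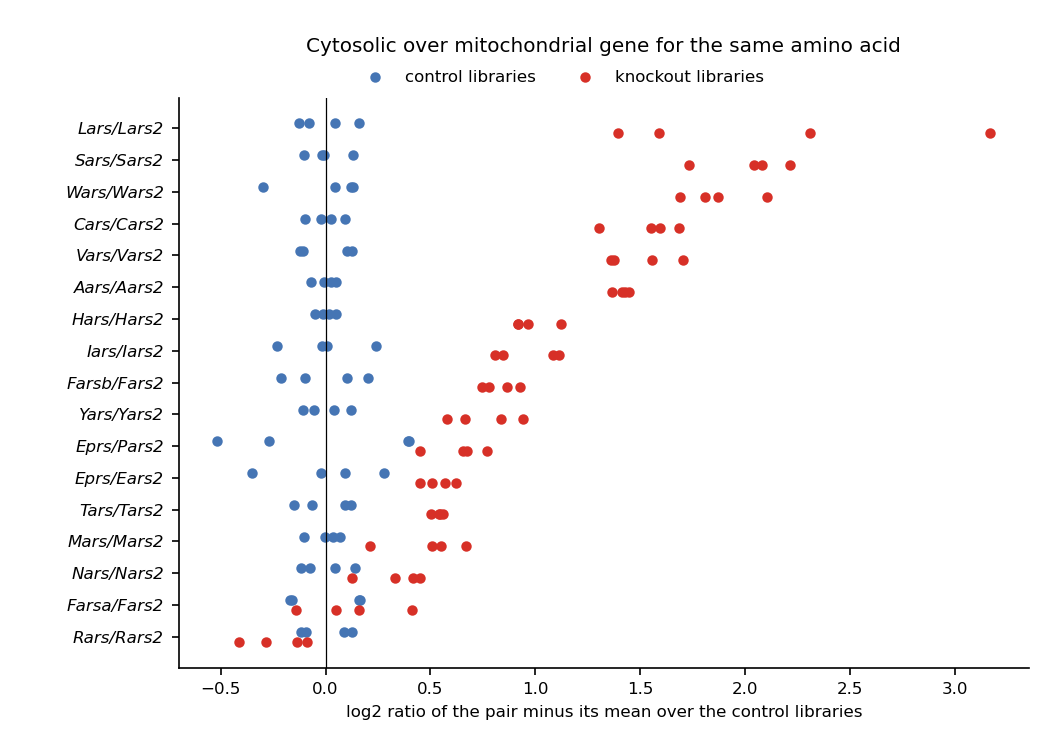
The log2 ratio of the cytosolic to the mitochondrial gene for the same amino acid in each library, less its mean over the 4 control libraries, for 17 pairs. Blue points are control and red points knockout libraries. The red points lie to the right of all blue points in 14 pairs, and overlap them for Nars/Nars2, Farsa/Fars2 and Rars/Rars2.

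Other genes of charging were then examined. Of 3 scaffold genes of the multisynthetase complex 2 fell and 1 rose. Aimp2 fell from 197 ± 54.2 to 50.7 ± 5.13 CPM (log2 fold change -1.96, standard error 0.20, adjusted p = 1.9e-05) and Aimp1 from 87.1 ± 7.76 to 68.5 ± 4.04 CPM (log2 fold change -0.35, standard error 0.080, adjusted p = 0.0039), whereas Eef1e1, which codes for the scaffold AIMP3, rose from 14.5 ± 2.45 to 21.8 ± 0.963 CPM (log2 fold change 0.60, standard error 0.12, adjusted p = 0.0015). On library totals alone Aimp2 still fell (-1.28) but Aimp1 rose (0.32). Aimp2 overlaps Eif2ak1 on the opposite strand by 14 bases.

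Of 10 further genes of charging 2 rose, 4 fell and 4 did not pass. Tarsl2, a further gene for a cytosolic threonine enzyme, fell from 139.6 ± 6.73 to 44.9 ± 6.21 CPM (log2 fold change -1.64, standard error 0.10, adjusted p = 9.0e-07) while Tars rose from 58.2 ± 5.88 to 101 ± 5.72 CPM (log2 fold change 0.79, standard error 0.084, adjusted p = 2.7e-05). The log2 ratio of Tars to Tarsl2, chosen after the values were seen, averaged -1.27 ± 0.15 over control and 1.17 ± 0.24 over knockout libraries, so that the more abundant of these genes was Tarsl2 in the control libraries and Tars in the knockout libraries. Qrsl1 and Gatc, subunit genes of the amidotransferase that makes mitochondrial glutaminyl-tRNA, fell (log2 fold change -0.54 and -0.40), and the remaining subunit gene Gatb did not pass (-0.16, adjusted p = 0.24). In selenocysteine synthesis Pstk, the kinase of seryl-tRNA, fell (-0.59) and Sepsecs, the synthase of the next step, rose (0.53). Dtd2, a proofreading deacylase, rose (0.50), and Dtd1 did not pass (0.31, adjusted p = 0.013). Aarsd1 and Mtfmt also did not pass. On library totals alone Tarsl2 still fell (-0.97), Gatc rose (0.28), and Qrsl1 (0.13) and Pstk (0.078) did not pass. With RLE factors Dtd2 (adjusted p = 0.014) and Sepsecs (adjusted p = 0.0101) did not pass.

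Of 4 elongation factor genes of the step that brings charged transfer RNA to the ribosome 1 rose, 1 fell and 2 did not pass. Eef1a1, the widely expressed cytosolic elongation factor, rose from 373 ± 52.5 to 2867 ± 171 CPM (log2 fold change 2.94, standard error 0.12, adjusted p = 1.2e-07). Eef1a2, the isoform of adult muscle, was at 2119 ± 203 CPM among control and 1553 ± 349.8 CPM among knockout libraries (log2 fold change -0.45, standard error 0.16, adjusted p = 0.033). Eef1a1 has processed copies in the genome, and reads that map to several places were left out by the authors, so its level is uncertain. Tufm, the mitochondrial elongation factor Tu, fell (-0.53, adjusted p = 9.4e-04), and its exchange factor Tsfm did not pass (0.25, adjusted p = 0.064). On library totals alone Eef1a1 still rose (3.60), and Tufm (0.14) and Eef1a2 (0.21) did not pass.

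Uncharged transfer RNA is sensed by the kinase GCN2, coded by Eif2ak4, with its activator Gcn1l1 and its inhibitor Impact. Gcn1l1 rose (0.45, adjusted p = 5.3e-04), and Eif2ak4 (-0.32) and Impact (-0.16) did not pass. Downstream of such kinases stands ATF4, and of 8 genes of the amino acid response 7 rose. They were Trib3 (6.98), Asns (5.71), Psat1 (5.14), Sesn2 (3.60), Ddit3 (2.62), Atf5 (2.38) and Atf4 (1.26), all on the log2 scale, each with no overlap between the groups. Chac1, another gene of this response, was at 110.4 ± 62.3 CPM among control and 49.8 ± 10.7 CPM among knockout libraries and did not pass (log2 fold change -1.15, standard error 0.36, adjusted p = 0.02). The median log2 fold change of the 8 genes was 3.11. Atf5 overlaps Nup62 on the opposite strand by 571 bases. That the amino acid response rises in these libraries was known when the list was chosen, and its count is not independent evidence.

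**Figure D5:**
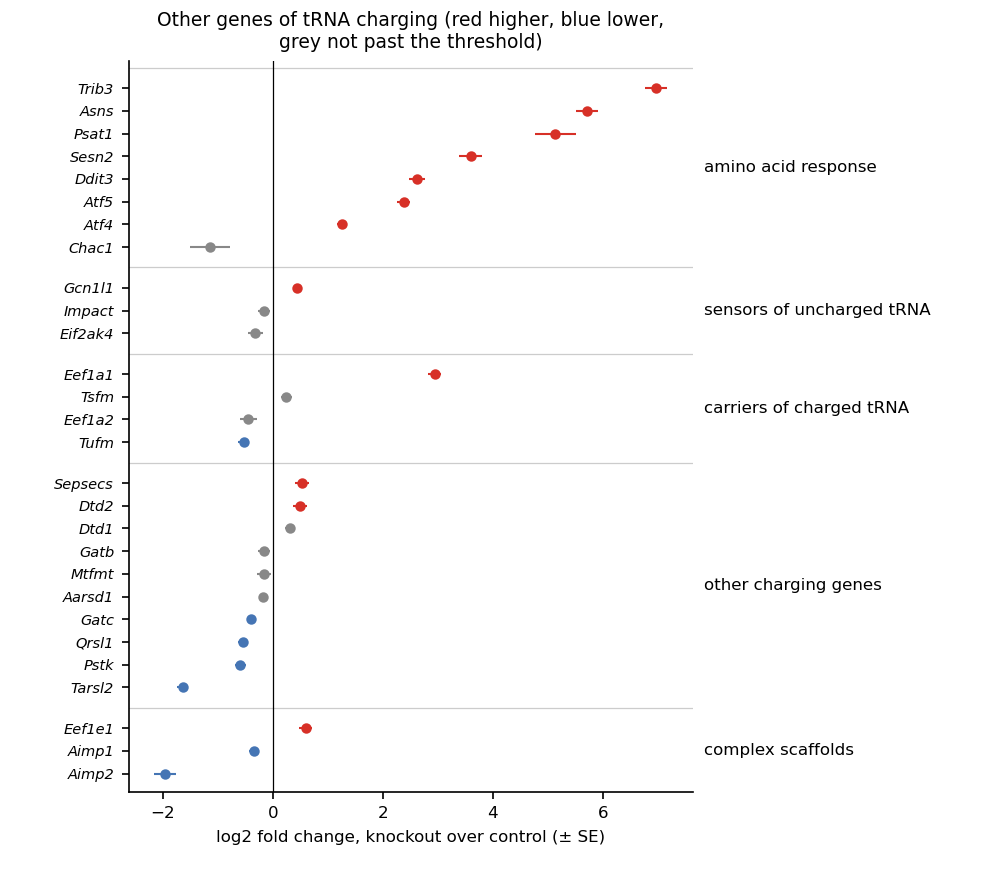
Log2 fold change (knockout over control) with its standard error for the genes of 5 lists around transfer RNA charging. Red points rose, blue points fell and grey points did not pass the threshold. The amino acid response genes run from -1.15 (Chac1) to 6.98 (Trib3). Aimp2, Tarsl2, Pstk, Qrsl1, Tufm, Gatc and Aimp1 fell on the TMM scale, and some grey points are also below 0.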

How the data were processed

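Poly(A) RNA of QF from 8 mice was sequenced from strand-specific libraries (NEBNext Ultra II Directional). As deposited, the values used are raw counts per gene, for which the authors used bcl2fastq 2.20.0.422 and cutadapt, mapped to GRCm38 with STAR 2.5.4b and counted with Rsubread 2.6.4. The authors removed duplicate, chimeric and multimapping reads, reads of a mapping quality under 10 and genes below 50 reads in sum. The annotation release and the strand setting of the counting are not given in the sources used here. Exon widths in bases, another signal deposited by the authors, gave levels per kb. The deposited FPKM values and the authors' DESeq2 1.32.0 fold changes and p-values were not used.

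Counts were tested with edgeR 4.0.16 in R 4.3.3 (TMM, glmQLFit and glmQLFTest, label as the only term), with Benjamini-Hochberg adjustment over all 14012 genes and an adjusted p under 0.01. Log2 ratios of gene pairs used a prior count of 2 and an exact permutation test over the 70 assignments of 4 against 4, whose smallest p is 0.0286. DESeq2 1.42.0 and limma 3.58.1 were alternatives, with other scalings, filters, designs and thresholds and each library left out in turn. On simulated data for 13988 genes, edgeR recovered 77% of the genes changed by 1 and 94% of those changed by 2 on the log2 scale, with 3 of 13788 unchanged genes called. The simulation changed 100 genes by each size, evenly up and down and none of them at low counts. In the data 23.6% of genes rose and 21.1% fell, a setting that the simulation did not cover. Promoter sequences were those of RefSeq, matched by Entrez ID or, where the table gave none, by symbol.

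The genes and lists were chosen with earlier results of these data known. All 36 genes are named, with values per library for the 6 largest and the 6 smallest log2 fold changes of each set, and genes of the charging lists are named. Another gene or comparison is a marker or is marked in the text as a later choice. No batch is given by the labels. A few genes and sequences of the lists and searches are not reported here.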

Additional observations from a re-analysis of the deposited data

Results flagged for a closer look

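In each of 72 groups of 4 libraries (36 genes in both groups) the highest and the lowest CPM were compared with the nearest other library. By this rule 2 values stood apart, and chance alone marks about 1 in 20 groups. Farsb in knockout replicate 2 had 90.1 CPM and lay below the other knockout libraries, at a gap of 0.906 of the range of the group, while still above every control library. Wars2 in knockout replicate 3 had 9.66 CPM and lay above the other knockout libraries, at a gap of 0.861 of the range. With either library left out Farsb still rose and Wars2 still did not pass the threshold, with a log2 fold change of -0.16 without knockout replicate 3.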

How the results depend on the processing

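Of the 36 genes, 17 kept their direction and their side of the threshold in each of 18 alternatives. With each library left out in turn, 15 cytosolic genes rose and 0 fell every time, and the mitochondrial genes that rose numbered 2 to 4. No mitochondrial gene rose by at least 1.5-fold (0). Library totals alone gave a cytosolic median of 1.45 and a mitochondrial median of 0.67, with 10 mitochondrial genes rising and 0 falling, and turned the log2 fold changes of Farsa (0.65), Qars (0.61), Aars2 (0.030), Fars2 (0.52), Hars2 (0.26), Lars2 (0.51), Wars2 (0.66) and Yars2 (0.32) above 0. Genes near 0 also changed sign. Farsa was 0.011 with upper-quartile factors, 0.0023 with a mean count of at least 50, 0.027 with the adipocyte genes as a covariate, and -0.075 to 0.021 with a library left out. Wars2 was 0.029, 0.021 and 0.060 under the same settings, 0.0016 with limma-voom and -0.16 (without knockout replicate 3) to 0.082 with a library left out. Iars2 was -0.036 with RLE factors, -0.036 with DESeq2, -0.037 with the covariate and -0.038 to 0.041 with a library left out. Vars2 was -0.021 with RLE factors, -0.021 with DESeq2, and -0.036 to 0.068 with a library left out. Lars2 was -0.43 to 0.057 with a library left out, above 0 only without knockout replicate 4. The cause was not tested.

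With the replicate number as a replicate block, 15 cytosolic genes rose and 0 fell; Tars2 (0.26) no longer passed and Yars2 (-0.34) passed. The correlations of the deviations of same-numbered libraries were 0.118, 0.0031, 0.42 and 0.138. Since 1 of the 4 was under 0.1, the numbers were not taken to pair the animals, although 3 of 4 control libraries matched best the knockout library of their own number, a hint of pairing from the data. The window of 250 bases before the start left 3 cytosolic promoters with the C/EBP-ATF element in place of 5. Without Lars2 the summed ratio was 5.36 in the controls and 11.2 in the knockouts, in place of 3.20 and 6.96. The standard errors of the log2 fold change were widest for Lars2 (0.28) and Pars2 (0.23), the least abundant gene.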
